A study of Mus musculus with 18 samples.

Results

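The MMERVK10C and RLTR10 elements are mouse endogenous retroviruses of the ERVK group, described here through 10 rows with such names among 1365 repeat rows. The 10 rows were chosen by name, with earlier results of these data known. Another 3 rows named after RLTR10 (RLTR10B2, RLTR10E and RLTR10F) are not among the 10 and are described apart. The 10 comprise 3 internal parts (MMERVK10C-int, MMERVK10D3_I-int and RLTR10-int) and 7 long terminal repeats (LTRs). The LTRs are MMERVK10D3_LTR, RLTR10, RLTR10A, RLTR10B, RLTR10C, RLTR10D and RLTR10D2. A row stands for the genomic copies that carry its name, and how reads that fit several copies were counted is not given. The study asked how inhibiting HSP90, a chaperone that helps many signalling and regulatory proteins to fold, changes RNA from endogenous retroviruses.

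The 18 libraries, made from mouse poly(A) RNA, form 6 groups of 3. Embryonic stem cells (ESCs) in 2i medium and neuronal progenitor cells (NPCs) in N2B27 medium with EGF and FGF were both of the 129S1/CASTEiJ background. Macrophages grown from bone marrow with M-CSF were of the BALBC/C57BL6 background. In each cell type, 3 libraries came from control cells and 3 from cells given the HSP90 inhibitor NVP-AUY922 for 24 h. ESCs received 100 nM, macrophages 500 nM and NPCs 50 nM. Cell type, dose and, for macrophages, strain therefore change together and cannot be told apart. The labels do not describe the replicates as separate cultures or animals. The p-values thus reflect library-to-library spread, which may be technical. Gene expression was not analysed here, so cell types and treatment are taken from the labels.

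The values are those of the authors' deposited tables, 1 per cell type, each a contrast between the treated and the control libraries. They give for each row a base mean (reads per library after scaling, averaged over the 6 libraries), a log2 fold change with its standard error (SE) and an adjusted p. No value per library is given, and the sources used here do not give the reads per library. The numerator of the contrast is not named, and it need not be the same group in each table. The positive and the negative side are therefore not tied to treated or control cells. A row was called where the adjusted p was under 0.05. More RNA per cell and more cells that hold the RNA cannot be told apart in such bulk libraries.

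An intact element of this kind has an internal part between 2 copies of an LTR. The internal part encodes the retroviral proteins, and the LTR holds the promoter and the signal that ends the transcript. MMERVK10C is a comparatively young family whose copies are commonly flanked by RLTR10C, and it is known for its release from silencing when the corepressor TRIM28 is lost in mouse neural progenitor cells. RLTR10B LTRs are known as enhancer-like sequences of male germ cells. Many LTRs also stand alone in the genome, where recombination has removed the internal part. Reads of an LTR row can therefore come from other copies than those of its internal part, or from transcripts of genes that hold such an LTR.

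The internal parts held most of the family's reads in each table, but which of them led differed. In ESCs they made up 75.4% of the summed base mean of the 10 rows, in macrophages 79.4% and in NPCs 62.3%. MMERVK10C-int held the largest share in ESCs, at 30.7%, with MMERVK10D3_I-int at 23.3% and RLTR10-int at 21.4%. In macrophages RLTR10-int alone held 61.3%, against 9.52% for MMERVK10C-int and 8.59% for MMERVK10D3_I-int. This macrophage share of RLTR10-int is uncertain, since the SE of its fold change there was 5.99 times the median of rows with similar reads. In NPCs RLTR10-int held 33.2% and MMERVK10C-int 27.7%, whereas MMERVK10D3_I-int held 1.41%. These shares compare rows within a table, count reads without regard to the length of an element, and have no replicate error because the base mean averages all 6 libraries.

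**Figure D1:**
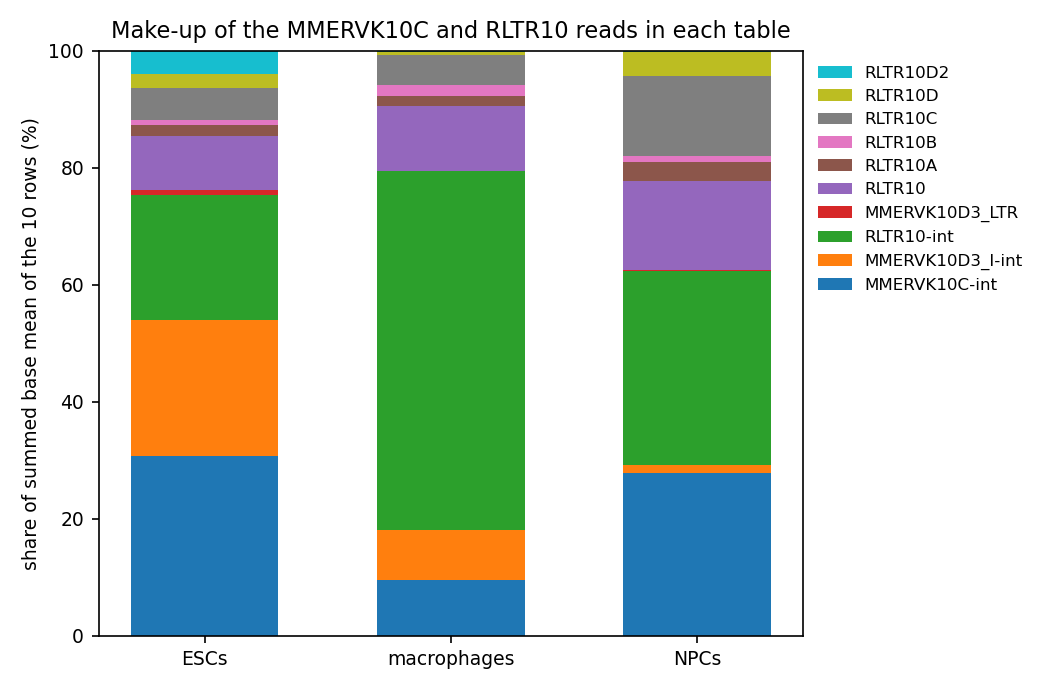
Share (%) of the summed base mean of the 10 rows held by each row, with 1 stacked bar per cell type. RLTR10-int fills 61.3% of the macrophage bar, and MMERVK10D3_I-int fills 23.3% of the ESC bar and 1.41% of the NPC bar.

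Among the LTRs, RLTR10 held the most reads in each table, 9.13% in ESCs, 11.1% in macrophages and 15.3% in NPCs. RLTR10C followed at 5.44%, 5.13% and 13.8%. RLTR10D2 held 4.05% in ESCs, against 0.230% in macrophages and 0.198% in NPCs. MMERVK10D3_LTR was a small row throughout, with 0.856%, 0.0720% and 0.191%. Together the 10 rows accounted for 0.764% (ESC), 0.577% (macrophage) and 0.369% (NPC) of the base mean summed over all repeats. Within the ERVK rows they made up 3.48%, 5.53% and 3.65%.

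In ESCs, 6 of the 10 rows were called, all on the positive side, and these included each of the 3 internal parts. The authors' deposited table called 22.2% of all tested rows on either side and 10.2% on the positive side. Of 262 other ERVK rows tested, 52 were called positive and 58 negative. Among the 537 other rows with at least the base mean of the lowest of the 10, 61 were called positive and 99 negative. The median log2 fold change of the 10 rows was 0.36, against 0.0019 over all tested rows. On the negative side, where 12.0% of all rows were called, 0 of the 10 were called by the authors' DESeq2 columns, and 0 had an unadjusted p under 0.05 there. No other tool was run.

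RLTR10-int, the internal part named after the RLTR10 LTR, had the largest value of the 10 in ESCs. The authors' deposited table puts it at 0.82 ± 0.07, with a base mean of 6277 and an adjusted p of 1.841e-32. This is a 1.77-fold difference, which for groups of equal size corresponds to means of 8020 and 4534 scaled reads. Group means given in this way, here and below, hold only if the deposited fold change was not shrunken towards 0. Rows with few reads show the pattern of such shrinkage. The means are therefore approximate and may lie too close together. MMERVK10D3_I-int, the internal part of a related subfamily, stood next to it: the authors' deposited table lists 0.80 ± 0.10 and a base mean of 6847. Its 1.74-fold difference corresponds to means of 8693 and 5000 scaled reads. The SE of this row was 1.36 times the median of 118 rows with a base mean within 2-fold of it, with 8 of them larger. MMERVK10C-int had more reads than either but a smaller difference, for which the authors' deposited table gives 0.26 ± 0.07 and an adjusted p of 0.00334. Its base mean of 9006 corresponds to means of 9805 and 8206 scaled reads, a 1.19-fold difference.

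The LTRs in ESCs fell into those that lay beside the internal parts and those that stayed near 0. For RLTR10D2 the authors' deposited table gives 0.79 ± 0.13, a base mean of 1189 and an adjusted p of 2.175e-08. Its SE exceeded that of all 191 rows with a base mean within 2-fold of it. MMERVK10D3_LTR and RLTR10, the LTRs that share a name with the leading internal parts, had 0.49 ± 0.13 and 0.47 ± 0.07. Their adjusted p in the authors' deposited table were 0.00181 and 8.876e-10. The other 4 LTRs were not called. The authors' deposited table puts RLTR10C at 0.11 ± 0.09, RLTR10D at 0.02 ± 0.10, RLTR10A at -0.08 ± 0.10 and RLTR10B at -0.14 ± 0.12. The 95% intervals of these 4 reached no further than -0.39 and 0.28, so differences beyond 0.4 on the log2 scale lie outside them. The intervals make no allowance for shrinkage of the fold changes, so this is no firm bound.

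**Figure D2:**
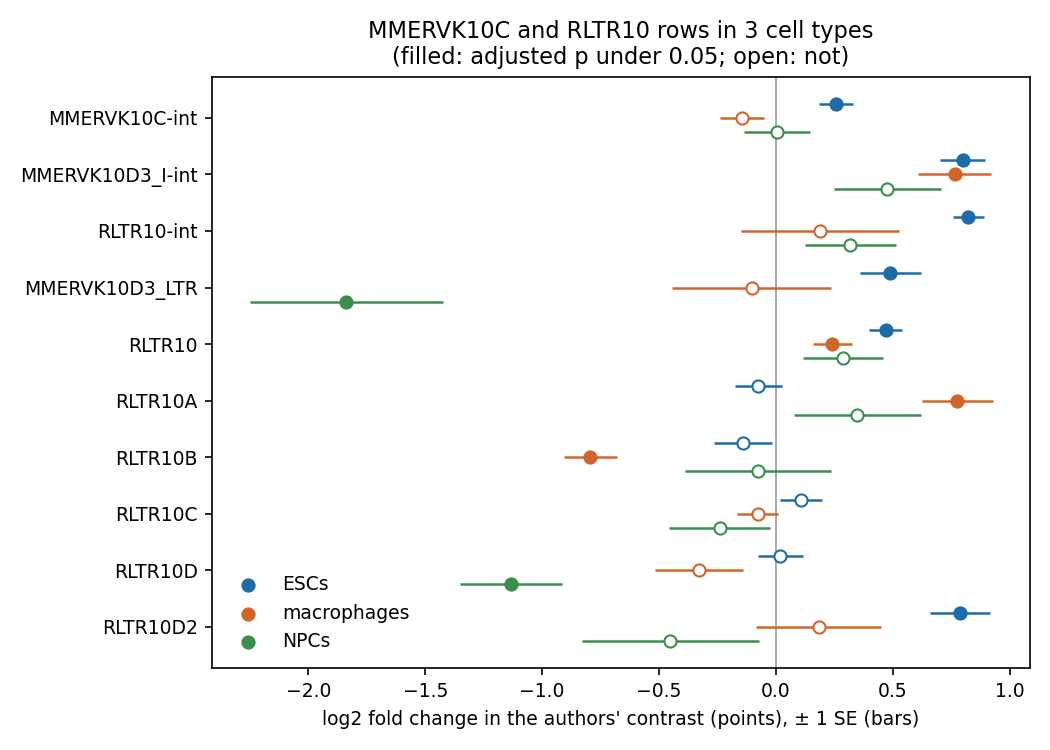
Log2 fold change in the authors' contrast (x axis, points) with 1 SE to each side (bars) for the 10 rows (y axis) in ESCs, macrophages and NPCs. Filled points have an adjusted p under 0.05; the 6 filled ESC points all lie above 0, and the 2 filled NPC points lie at -1.84 and -1.13.

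In macrophages the family was divided: 3 rows were called on the positive side, 1 on the negative side and 6 not at all. The authors' deposited table called 25.8% of all tested rows, 13.3% positive and 12.5% negative. Among the 1019 other rows with at least the base mean of the lowest of the 10, 16.0% were called positive and 15.0% negative. Against these shares, 1 of 10 on the negative side is near the background, and 3 of 10 on the positive side is above it by a small number of rows. The median of the 10 was 0.05, against -0.01 over all tested rows. Of 267 other ERVK rows, 46 were positive and 52 negative.

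MMERVK10D3_I-int was the internal part called in macrophages. For it the authors' deposited table gives 0.76 ± 0.16, a base mean of 985 and an adjusted p of 1.192e-05. The 1.70-fold difference corresponds to means of 1240 and 730 scaled reads. RLTR10A lay as far out, with 0.78 ± 0.15, a base mean of 198 and 3.524e-06 as its adjusted p in the authors' deposited table. RLTR10 was called at a smaller value, which the authors' deposited table gives as 0.24 ± 0.08 (adjusted p = 0.0187). RLTR10B, the LTR known from germ cells, was the row called on the negative side, which the authors' deposited table puts at -0.79 ± 0.11 (adjusted p = 5.45e-11). At its base mean of 225, this 1.73-fold difference corresponds to means of 286 and 165 scaled reads.

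RLTR10-int, which held most of the family's macrophage reads, was not called, and its value was imprecise. The authors' deposited table gives 0.19 ± 0.34 at a base mean of 7025, and the 95% interval ran from -0.47 to 0.85. The median SE of 67 rows with a base mean within 2-fold of it was 0.06, so that its SE was 5.99 times that median, and only 2 of these rows had a larger one. MMERVK10D3_I-int also had a wide error for its reads, 1.88 times the median of 196 similar rows, with 7 of them larger. The SE of MMERVK10C-int was near that of its neighbours, at 1.15 times the median, and its value of -0.14 ± 0.09 from the authors' deposited table was not called. The authors' deposited table likewise leaves RLTR10C at -0.08 ± 0.09, RLTR10D at -0.33 ± 0.19, RLTR10D2 at 0.18 ± 0.27 and MMERVK10D3_LTR at -0.10 ± 0.34 uncalled. The last of these rested on 8.26 scaled reads per library, its base mean in the authors' deposited table.

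**Figure D3:**
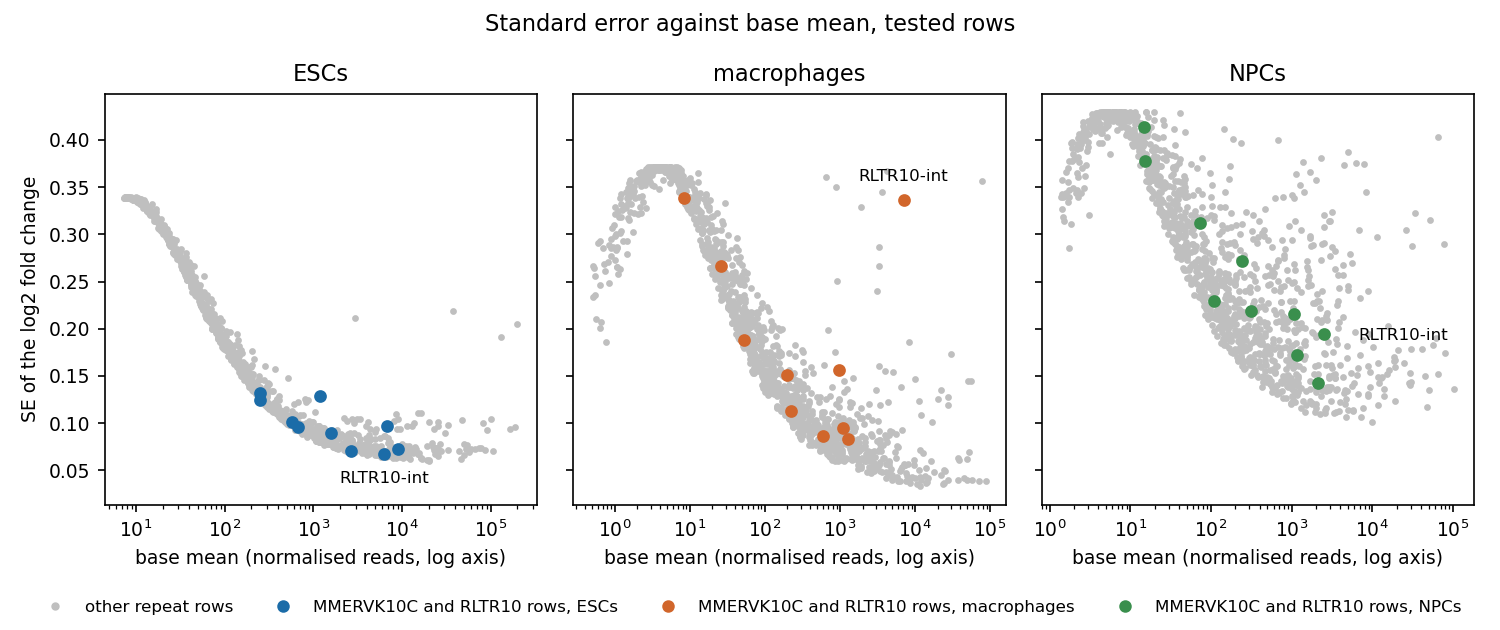
SE of the log2 fold change (y axis) against base mean (x axis, log scale) for all tested rows (grey) and the 10 rows (coloured), with 1 panel per cell type. In macrophages RLTR10-int, at an SE of 0.34 and a base mean of 7025, stands far above most rows with as many reads.

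In NPCs, 2 rows were called, both LTRs on the negative side, and the internal parts all stayed uncalled. The authors' deposited table called 11.8% of all tested rows, 4.96% positive and 6.81% negative. For RLTR10D the authors' deposited table gives -1.13 ± 0.22, a base mean of 315 and an adjusted p of 8.242e-06. That 2.19-fold difference corresponds to means of 433 and 198 scaled reads. MMERVK10D3_LTR lay further out, with -1.84 ± 0.41 in the authors' deposited table (adjusted p = 2.312e-04), but at a base mean of only 14.7. Its SE was close to the largest of any tested row in that table, 0.43. Few reads carry this call, and no group means are given, since any shrinkage would bear most on such a row.

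On the positive side 0 of the 10 rows were called in NPCs by the authors' DESeq2 columns, and 1 had an unadjusted p under 0.05. This was MMERVK10D3_I-int, which the authors' deposited table puts at 0.48 ± 0.23 (adjusted p = 0.199). RLTR10-int had 0.32 ± 0.19 there, while the authors' deposited table gives RLTR10 as 0.29 ± 0.17 and RLTR10A as 0.35 ± 0.27. MMERVK10C-int, which in these cells had a base mean of 2137, had 0.0034 ± 0.1423 in the authors' deposited table, with a 95% interval from -0.28 to 0.28. Also uncalled in the authors' deposited table were RLTR10C at -0.24 ± 0.22, RLTR10B at -0.08 ± 0.31 and RLTR10D2 at -0.45 ± 0.38. The median of the 10 was -0.04, against 0.0009 over all tested rows and 0.10 over the 266 other ERVK rows, of which 28 were called positive and 21 negative. The median SE of the 10 rows was 0.22 in NPCs, 0.15 in macrophages and 0.10 in ESCs. At this precision a value such as that of MMERVK10D3_I-int in NPCs, close to the called value of RLTR10 in ESCs, did not pass.

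**Figure D4:**
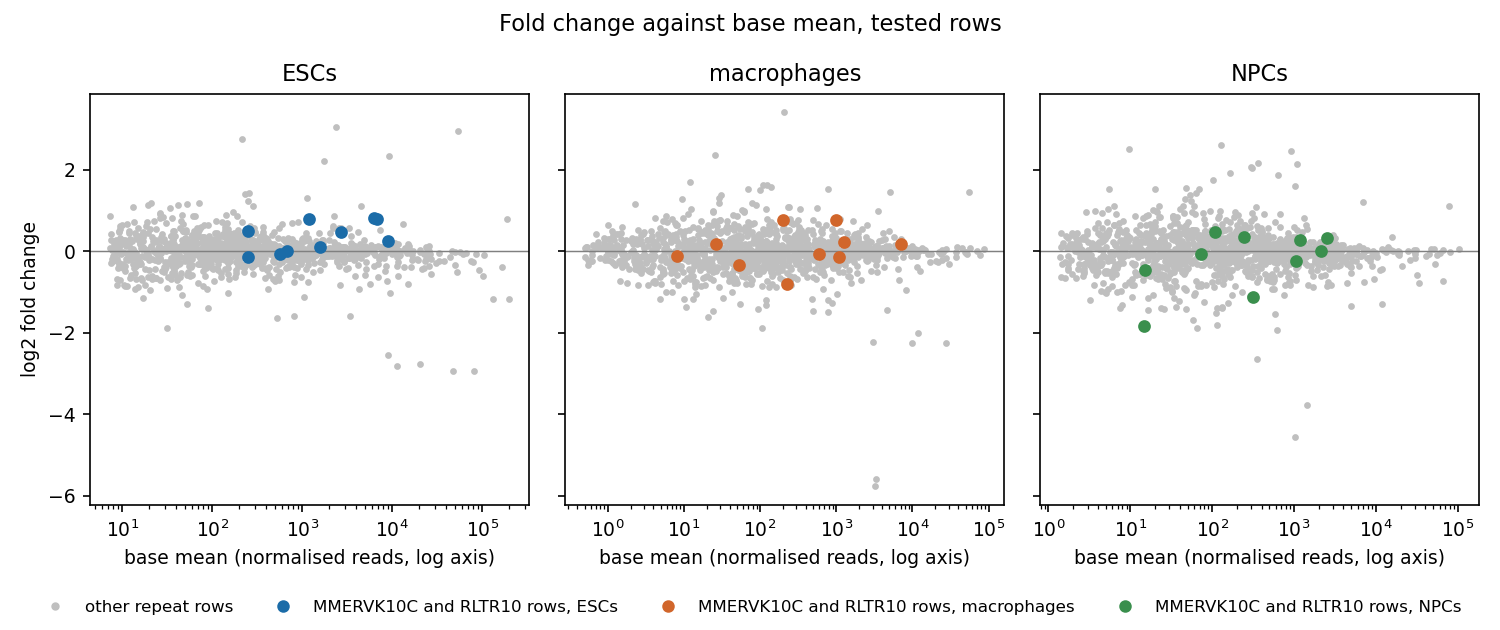
Log2 fold change (y axis) against base mean (x axis, log scale) for all tested rows (grey) and the 10 rows (coloured), with 1 panel per cell type. The ESC points with the most reads lie above 0, whereas the lowest NPC point, MMERVK10D3_LTR at -1.84, has a base mean of 14.7.

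An LTR and the internal part it can flank did not always have the same sign. Each such case involved a value whose 95% interval held 0 or a row with few reads. For RLTR10-int and RLTR10 the authors' deposited tables give 0.82 and 0.47 for ESCs, 0.19 and 0.24 for macrophages and 0.32 and 0.29 for NPCs, all positive. The internal part minus the LTR came to 0.35, -0.05 and 0.03 for this pair. For MMERVK10D3_I-int and MMERVK10D3_LTR the same difference came to 0.31 (ESC), 0.87 (macrophage) and 2.31 (NPC). In NPCs these lay on opposite sides, at 0.48 and -1.84 in the authors' deposited table, of which the LTR alone was called. They also had opposite signs in macrophages, at 0.76 and -0.10 in the authors' deposited table, where the internal part alone was called. For MMERVK10C-int and RLTR10C it was 0.15, -0.07 and 0.24. For this pair the authors' deposited table has opposite signs in NPCs, 0.0034 ± 0.1423 and -0.24 ± 0.22, with neither row called. Both rows of a pair come from the same libraries and their covariance is unknown, so these differences were not tested.

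Cell types were compared row by row: the gap between the log2 fold changes of a row was divided by the square root of its summed squared SEs. A two-sided normal p was adjusted by Benjamini-Hochberg over all rows tested in both tables. The test assumes the same numerator in each table, for which there is no statement. It also makes no allowance for shrinkage of the fold changes, which would differ between cell types where the reads differ. RLTR10D2, for example, had a base mean of 1189 in ESCs and 15.3 in NPCs. Between ESCs and macrophages 3 of the 10 rows passed, 2 with the higher value in ESCs and 1 with the higher value in macrophages. Over all rows 23.7% passed, 11.8% on each side. RLTR10A had the higher value in macrophages, 0.78 against -0.08, a difference of -0.85 ± 0.18 (adjusted p = 4.664e-05). RLTR10B differed by 0.65 ± 0.17 (adjusted p = 0.00102), and MMERVK10C-int by 0.40 ± 0.12 (adjusted p = 0.00551), both with the higher value in ESCs. MMERVK10D3_I-int differed by 0.03 ± 0.18, with a 95% interval from -0.33 to 0.39, but by 1.56 ± 0.18 if the numerators were opposite (adjusted p = 6.129e-16). RLTR10-int differed by 0.63 ± 0.34 and did not pass (adjusted p = 0.184), against 1.01 ± 0.34 with opposite numerators (adjusted p = 0.0154).

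The NPC values of MMERVK10D3_LTR and RLTR10D differed from those of both other cell types. Between ESCs and NPCs 3 rows passed, all with the higher value in ESCs, where 12.6% of all rows passed and 6.48% on this side. They were MMERVK10D3_LTR, at a difference of 2.33 ± 0.43 (adjusted p = 2.783e-06), RLTR10D at 1.15 ± 0.24 (adjusted p = 3.76e-05) and RLTR10D2 at 1.24 ± 0.40 (adjusted p = 0.0201). With the higher value in NPCs, where 6.13% of all rows passed, there were 0 of the 10, and 0 at an unadjusted p under 0.05 by this normal test. Between macrophages and NPCs 2 rows passed, both with the higher value in macrophages, where 12.4% of all rows passed and 6.22% on this side. MMERVK10D3_LTR differed by 1.73 ± 0.53 (adjusted p = 0.0139) and RLTR10D by 0.80 ± 0.29 (adjusted p = 0.0439). In the other direction, where 6.14% of all rows passed, there were 0 of the 10, and at an unadjusted p under 0.05 there was 1, RLTR10B. Each pair of these comparisons shares a table, so MMERVK10D3_LTR and RLTR10D enter both through the same NPC value. Neither MMERVK10D3_LTR nor RLTR10D2 reached a base mean of 50 in macrophages or in NPCs.

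With the sign of the second table of each pair turned, other rows passed. Between ESCs and macrophages 6 of the 10 rows then passed, against 27.9% of all rows. RLTR10D2 at 0.97 and RLTR10 at 0.71 joined MMERVK10D3_I-int and RLTR10-int, while MMERVK10C-int no longer passed, at 0.11 ± 0.12 (adjusted p = 0.533). RLTR10A and RLTR10B passed under both orientations, on opposite sides. Between ESCs and NPCs 5 rows passed, against 16.2% of all rows. MMERVK10D3_I-int at 1.27, RLTR10-int at 1.14 and RLTR10 at 0.76 were gained, and RLTR10D2 was lost at 0.33 ± 0.40 (adjusted p = 0.674). Between macrophages and NPCs 6 rows passed, against 19.9% of all rows. MMERVK10D3_I-int at 1.24, RLTR10A at 1.12, RLTR10 at 0.53 and RLTR10B at -0.87 were gained. MMERVK10D3_LTR and RLTR10D passed against NPCs under both orientations, again on opposite sides.

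**Figure D5:**
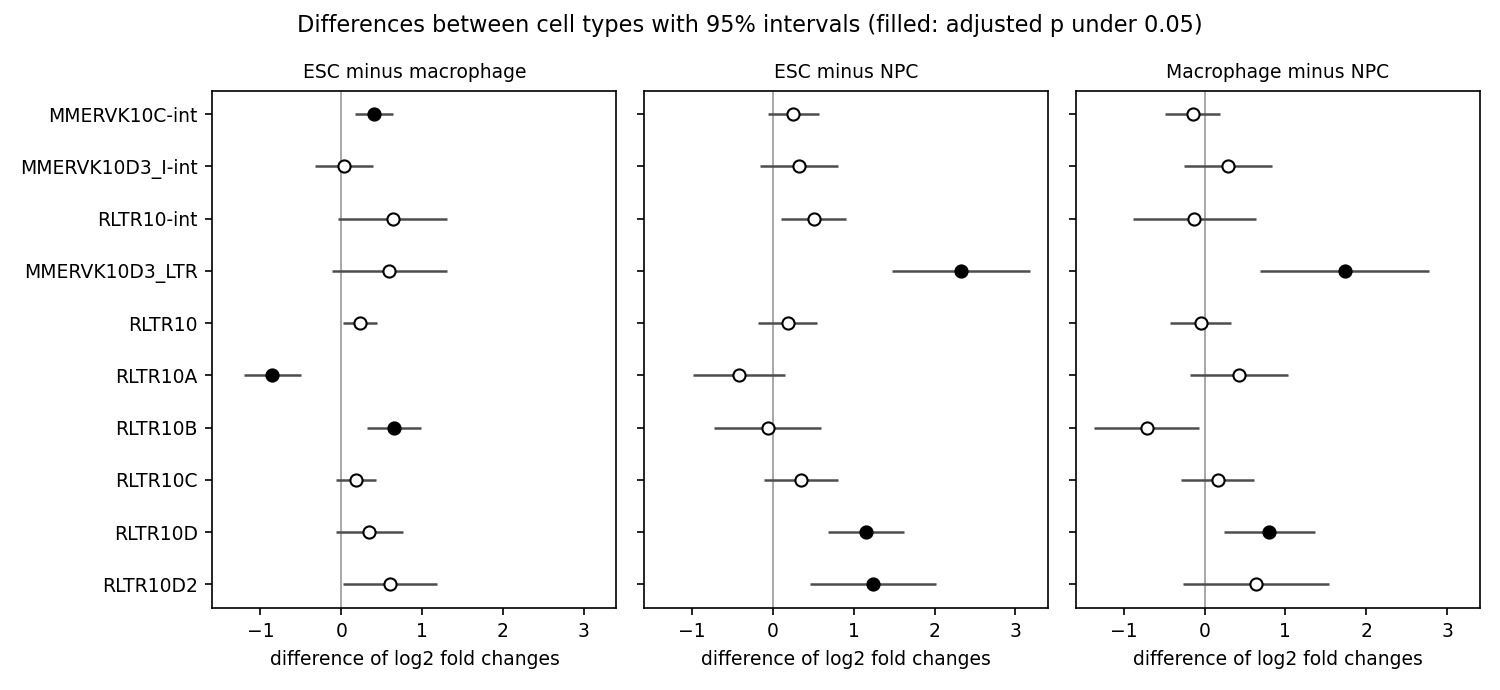
Difference of the log2 fold changes between cell types (x axis, points) with its 95% interval (lines) for the 10 rows (y axis), 1 panel per pair, with the tables taken as having the same numerator. Filled points have an adjusted p under 0.05, and MMERVK10D3_LTR lies at 2.33 for ESC minus NPC and at 1.73 for macrophage minus NPC.

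The 3 further rows named after RLTR10, which are RLTR10B2, RLTR10E and RLTR10F, were not called in any cell type. Their values in the authors' deposited tables ran from -0.26 to 0.18 in ESCs, from -0.23 to -0.03 in macrophages and from -0.22 to 0.42 in NPCs. By the authors' DESeq2 columns, 1 of them had an unadjusted p under 0.05 in ESCs, 0 in macrophages and 1 in NPCs. RLTR10F differed between macrophages and NPCs, by 0.65 ± 0.21 with the higher value in NPCs (adjusted p = 0.0173), if the tables share a numerator. With the NPC sign turned it did not pass, at 0.18 ± 0.21 (adjusted p = 0.623), while for ESC minus NPC it then did, at 0.53 ± 0.19 (adjusted p = 0.0326).

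Rows with the most similar values were sought among 708 other rows that had a base mean of at least 50 in all 3 tables, by the Euclidean distance of the 3 log2 fold changes. Nearest to MMERVK10C-int was IAPLTR2a2_Mm, an LTR of intracisternal A particles, at a distance of 0.03. The authors' deposited tables put it at 0.25 ± 0.08 for ESCs, -0.12 ± 0.16 for macrophages and -0.02 ± 0.17 for NPCs. The L1 element L1M4a2 and the ERVL LTR MT2B1 followed, both at 0.08. Nearest to RLTR10-int were the ERVK LTRs MLTR18D_MM, RLTR31C_MM and IAPLTR2a, at 0.31, 0.33 and 0.35. These distances are descriptions over 3 values per row. The SE of RLTR10-int in macrophages, 0.34, is about as large as the distances from that row. The distances from MMERVK10C-int are smaller than its SE in macrophages, 0.09, and in NPCs, 0.14, so the order of its neighbours is not resolved.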

How the data were processed

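Build mm10 and the tools DESeq2, featureCounts, deepTools, Bowtie2, Trim Galore and TopHat2 2.0.13 are named, without their order, per the submitters' processing notes. Whether counting used strand, and where reads that fit several copies went, are not given in the sources used here, so related rows can share reads. Libraries were made from poly(A) RNA with a stranded kit and read from both ends, per the labels' protocols. Per the file headers, each deposited table is a DESeq2 result: base mean (a signal), log2 fold change and SE, Wald statistic (a score), p-value and adjusted p-value. The deposited adjusted p-values were Benjamini-Hochberg values over 1132 (ESC), 1255 (macrophage) and 1249 (NPC) rows. All 10 rows were among these. Where the base mean was under 1, log2 fold changes stayed within 0.25, 0.42 and 0.37 of 0. The SE did not rise there either. In ESCs it was 0.11 for CR1-8_Crp at a base mean of 0.147, against 0.34 for LTR53-int at 8.89, the largest of any tested row. This is the pattern of fold changes shrunken towards 0, although no source used here states that they were.

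As the tables hold no counts per library, the authors' adjusted p stood in for a count model. Computed here with Python 3.11.15, pandas 2.3.3 and scipy 1.17.1 were 95% intervals (1.96 SE to each side), shares of reads and the difference test. So were the group means implied by base mean and fold change. The difference test was also run on simulated data. That simulation drew its noise as the test assumes, so it could not show errors from shrinkage or from opposite numerators. Named are all 10 rows, the other RLTR10 names and, for RLTR10-int and MMERVK10C-int, the 3 nearest rows each. The rows and lists were chosen with earlier results of these data known. The background of rows with at least the lowest base mean of the 10 was added after seeing the values. It sets a lower bound only and does not match the rows by reads. Sequences of these repeats were not used here.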

Additional observations from a re-analysis of the deposited data

Results flagged for a closer look

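For 8 combinations of row and pair of cell types, the difference of the log2 fold changes itself passed the test (adjusted p under 0.05, tables taken as oriented alike). ESC minus macrophage gave 0.40 for MMERVK10C-int, -0.85 for RLTR10A and 0.65 for RLTR10B. ESC minus NPC gave 2.33 for MMERVK10D3_LTR, 1.15 for RLTR10D and 1.24 for RLTR10D2. Macrophage minus NPC gave 1.73 for MMERVK10D3_LTR and 0.80 for RLTR10D. With base means in NPCs of 14.7 for MMERVK10D3_LTR and 15.3 for RLTR10D2 in the authors' deposited table, 3 of the 8 rest on few reads. Cell type and dose cannot be told apart in any of the 8, nor strain from these in the 5 that involve macrophages. ESCs and NPCs were of the same strain background.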

How the results depend on the processing

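The tables hold no values per library. No paired analysis was possible because of this, and no replicate could be left out. Among the 5 alternatives within a table, only centring on the median altered the log2 fold changes, by at most 0.013. Under the others the direction could not change. Of 146 values of single rows under these 5, 145 kept direction and call. The exception was RLTR10 in macrophages, not called at an adjusted p of 0.01. At that threshold NPC calls over all rows fell from 147 to 95, and macrophage minus NPC calls from 151 to 91, with 0 of the 10 rows in place of 2. ESC minus NPC calls fell from 142 to 95, with 2 of the 10 rows in place of 3, as RLTR10D2 no longer passed. With a base mean of at least 50, MMERVK10D3_LTR and RLTR10D2 left the tests in macrophages and NPCs. This left 1 negative NPC row, 1 row for ESC minus NPC and 1 for macrophage minus NPC, each time RLTR10D.

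The differences between cell types depend on the tables being oriented alike. With the second table's sign turned, ESC minus macrophage had 5 positive and 1 negative of the 10 rows, ESC minus NPC 3 and 2, and macrophage minus NPC 3 and 3, with 243 of all rows passing. MMERVK10C-int for ESC minus macrophage (0.11) and RLTR10D2 for ESC minus NPC (0.33) were lost, and 10 results of the same direction were newly called. ESC minus macrophage then reversed for RLTR10A (0.70), RLTR10B (-0.94) and RLTR10D (-0.31). ESC minus NPC reversed for MMERVK10D3_LTR (-1.35), RLTR10A (0.27), RLTR10C (-0.13) and RLTR10D (-1.11). Macrophage minus NPC reversed for RLTR10-int (0.51), MMERVK10D3_LTR (-1.94), RLTR10 (0.53), RLTR10C (-0.32), RLTR10D (-1.46) and RLTR10D2 (-0.27). These reversals follow from the turned sign itself. Centring each table on its median changed no call among the 10 rows.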
